A study of Mus musculus with 6 samples.

Results

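Gas5 and 7 other non-coding genes, Snhg1, Snhg3, Snhg5, Snhg6, Snhg8, Snhg12 and Zfas1, carry small nucleolar RNAs (snoRNAs) in their introns. Counts per gene of these hosts were followed here in sorted mouse spermatocytes of Srp68 knockout and wild type genotype. Spliced transcripts and those that retain introns were not told apart. The 8 genes are 8 of the 49584 gene identifiers in the deposited table, taken by symbol from GENCODE vM21 as non-coding snoRNA hosts. The members were chosen by symbol with their measured counts in the knockout and wild type libraries already known, so their differences between genotypes are given as a description, with no test. The samples were 3 Srp68 SKO libraries and 3 wild type (WT) libraries of leptotene and zygotene spermatocytes, the cells of early meiotic prophase, sorted from testes of mice at postnatal day 12. Srp68 is a protein of the signal recognition particle, which guides ribosomes making membrane and secreted proteins to the endoplasmic reticulum. The table calls the knockout columns CKO where the labels write SKO; what the S stands for, the deleted part of the gene, any Cre driver and how many mice went into a library were all not given in the sources used here. Libraries were made from poly(A) RNA with Smart-seq2, a method that amplifies full-length cDNA from few cells.

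snoRNAs guide chemical modification or processing of ribosomal RNA in the nucleolus, the box C/D class mainly 2'-O-methylation and the box H/ACA class mainly pseudouridylation. In vertebrates most of them are cut out of introns of host transcripts, so a host is spliced and exported while the intron is trimmed to the snoRNA. The spliced RNAs of hosts such as Gas5 hold no long reading frame, are bound by ribosomes and are degraded by nonsense-mediated decay in mammalian cells. Gas5 was first described as a transcript that accumulates in growth-arrested cells, and it begins with a 5' terminal oligopyrimidine tract, a feature it shares with ribosomal protein mRNAs, whose translation responds to mTOR signalling.

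The starts of the hosts are shown first because pyrimidine tracts and TATA elements are what several of them share beside the snoRNAs. RefSeq promoter sequences (GRCm38.p6) were found for 7 of the 8 genes, and each stretch of 90 bases below runs from 60 bases before the annotated start to 30 bases from it, on the strand of the gene. Capitals mark TATAAA or TATATA at least 20 bases before the start, the cAMP response element TGACGTCA, and a C followed by 4 pyrimidines (any of the 5-letter words from CCCCC to CTTTT) that opens between 5 bases before and 15 bases after the first transcribed base. The stretches lie at chr1:161035106-161035195 on the plus strand for Gas5, chr3:123508307-123508396 on the minus strand for Snhg8, chr4:132308618-132308707 on the plus strand for Snhg12, chr9:88522868-88522957 on the minus strand for Snhg5 and chr19:8723427-8723516 on the plus strand for Snhg1.
Gas5: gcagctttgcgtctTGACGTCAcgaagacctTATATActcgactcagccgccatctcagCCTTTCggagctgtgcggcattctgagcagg
Snhg8: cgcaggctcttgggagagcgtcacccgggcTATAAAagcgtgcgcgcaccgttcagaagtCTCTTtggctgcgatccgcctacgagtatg
Snhg12: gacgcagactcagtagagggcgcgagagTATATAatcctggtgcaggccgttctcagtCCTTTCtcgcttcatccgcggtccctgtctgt
Snhg5: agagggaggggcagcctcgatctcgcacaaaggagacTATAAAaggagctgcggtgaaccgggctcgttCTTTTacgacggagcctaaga
Snhg1: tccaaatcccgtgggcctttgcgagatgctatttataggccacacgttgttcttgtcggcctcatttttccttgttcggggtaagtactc
A TATA match stood in 4 of the 7 promoters (Gas5, Snhg5, Snhg8 and Snhg12), against 3.62% of all 32851 RefSeq promoters in the same window on the transcribed strand. A pyrimidine run stood in the window around the start in 5 of the 7, those 4 genes and Snhg3, against 29.9% of all promoters. In Gas5, Snhg3, Snhg8 and Snhg12 it opened within 2 bases of the first transcribed base, as in 8.96% of all promoters. In Snhg5 the run opened 9 bases after the first transcribed base. In Snhg8 it opened at the first transcribed base itself. Gas5 alone among the 7 held TGACGTCA, which stood 46 bases before its start and is found in 1.79% of all promoters on either strand of their 300 bases. None of the 7 held TGATGNAAT, the letters of the ATF4 and CHOP composite element, which 0.965% of all promoters hold on either strand. For Gas5 the start shown is that of 11 of its 25 GENCODE transcripts to within 15 bases. By the same measure the start used was that of 5 of 10 transcripts for Snhg12, 2 of 3 for Snhg8 and 2 of 6 for Snhg5. It was that of 2 of 5 for Zfas1, 3 of 18 for Snhg1 and 1 of 5 for Snhg3. The distances of motifs given above are counted from these annotated starts, and other transcripts of the same genes start elsewhere. A further start of Gas5 in the RefSeq table held none of these motifs in its stretch. These matches describe letters in a window, and the motifs were chosen with the sequences in view.

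Inside the 8 genes GENCODE vM21 annotates 32 snoRNA genes on the same strand, 10 in Gas5, 8 in Snhg1, 5 in Snhg12, 3 in Zfas1, 2 each in Snhg3 and Snhg5, and 1 each in Snhg6 and Snhg8. The list holds repeat entries for Snord80 and Snora16a. Of these cargo RNAs, 3 are printed to show what the hosts carry, with box C (TGATGA) and box D (CTGA) in capitals in the C/D RNAs and the ACA near the 3' end in capitals in the H/ACA RNA. Snord47 lies in Gas5 at chr1:161038082-161038158 on the plus strand, Snord87 in Snhg6 at chr1:9942463-9942549 on the minus strand and Snora24 in Snhg8 at chr3:123507937-123508066 on the minus strand, all from GENCODE transcripts on GRCm38.
Snord47: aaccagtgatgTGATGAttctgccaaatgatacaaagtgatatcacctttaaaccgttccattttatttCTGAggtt
Snord87: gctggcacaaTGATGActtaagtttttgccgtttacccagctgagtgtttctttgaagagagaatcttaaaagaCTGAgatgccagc
Snora24: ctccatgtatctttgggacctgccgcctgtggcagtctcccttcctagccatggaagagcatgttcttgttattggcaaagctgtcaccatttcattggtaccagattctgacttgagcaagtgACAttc
All 32 snoRNA genes had a row in the deposited table, and 31 of the rows were 0 in every library. Snord87 held 4 counts in all. On GRCm38 the hosts lie at chr1:161034422-161038539 (Gas5, plus strand), chr19:8723475-8726443 (Snhg1, plus), chr4:132348014-132353686 (Snhg3, minus), chr9:88521050-88522929 (Snhg5, minus), chr1:9941959-9944118 (Snhg6, minus), chr3:123507552-123508404 (Snhg8, minus), chr4:132308623-132311024 (Snhg12, plus) and chr2:167062934-167065862 (Zfas1, plus). A count of 0 for a snoRNA says little about the snoRNAs, because they are short and not polyadenylated, and because 29 of the 32 lie wholly inside exons that GENCODE draws for their host, mostly in transcripts with retained introns. The values below are therefore those of the host transcripts, and the snoRNAs themselves were not measured.

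Depth was 11853738 to 12728853 counts in the SKO libraries and 14254224 to 15381473 counts in the WT libraries, and 3 counts corresponded to 0.174 to 0.289 CPM. Values are in CPM, the usual unit of counts relative to the total of a library, after TMM scaling, which sets the libraries to a common level over most genes. Srp68 was at 12.1, 6.52 and 6.93 CPM in SKO replicates 1 to 3 and at 21.7, 29.3 and 22.6 CPM in WT replicates 1 to 3, lower in every knockout library. Markers of the labelled cells were abundant, with a summed level of 9 leptotene and zygotene genes of 26720 to 34240 CPM in SKO and 17400 to 20710 CPM in WT libraries; 6 of the 9 were called higher and 1, Ddx4, lower. In these bulk samples, fewer cells of a type and less RNA per cell cannot be told apart, for these markers and for the hosts. The endothelial markers Pecam1, Cdh5, Kdr and Tek summed to at most 1.86 CPM in any library, the Leydig markers Cyp17a1 and Cyp11a1 were at 0 in all libraries, and the 6 Leydig genes summed to 4.94 to 9.87 CPM in SKO and 0.58 to 6.6 CPM in WT libraries. Sertoli markers summed to 8.10 to 25.9 CPM in SKO and 7.22 to 13.9 CPM in WT, peritubular myoid markers to 4.61 to 13.3 CPM and 1.04 to 2.36 CPM, macrophage markers to 1.86 to 29.9 CPM and 1.80 to 2.25 CPM, and erythroid markers to 27.1 to 116 CPM and 2.38 to 105 CPM, in SKO and WT. Spermatogonial markers summed to 47.1 to 63.0 CPM in SKO and 52.3 to 62.0 CPM in WT, and pachytene markers to 307 to 387 CPM in SKO and 319 to 431 CPM in WT, a sum made up mostly of Hspa2. Of the 4 tested pachytene markers 1 was called higher and 2 lower. Ldhc, the lactate dehydrogenase of germ cells, fell to 12.7 ± 2.84 CPM in SKO, against 55.7 ± 8.72 CPM in WT (SD, n = 3 each; log2 fold change -2.13, edgeR adjusted p = 9.95e-06). The PIWI protein gene Piwil1 fell to 1.26 ± 0.194 CPM in SKO, against 5.10 ± 1.04 CPM in WT (SD, n = 3 each; edgeR adjusted p = 0.00697), and the transcription factor gene Mybl1 rose by 0.47 (edgeR adjusted p = 0.0299). Among markers of somatic cells the myoid gene Acta2 and the macrophage gene Lyz2 were called higher (edgeR adjusted p = 0.00763 and 0.0454), Lyz2 with 25.2 CPM in SKO replicate 3. The part of these shifts, in stage and in other cells, in the values of the hosts was not tested.

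All 7 hosts that could be tested were higher in every SKO library than in every WT library, an order that 21.6% of all tested genes had, while 22.2% had the opposite one. Gas5 had 375, 419 and 450 CPM in SKO replicates 1 to 3, from 4558, 4506 and 4679 counts, against 87.1, 94.0 and 105 CPM in WT replicates 1 to 3, from 1351, 1623 and 1597 counts. The lowest SKO library was 3.59 times the highest WT library, and within a genotype the replicates lay close together, with a coefficient of variation of 9.11% in SKO and 9.27% in WT. Gas5 averaged 415 ± 37.8 CPM in SKO and 95.2 ± 8.83 CPM in WT (SD, n = 3 each), a ratio of means of 4.36 and a log2 fold change of 2.12 (SE 0.12).

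Snhg8, the host of the H/ACA RNA Snora24, had the steepest difference of the 7 tested hosts. It had 73.0, 71.8 and 83.0 CPM in SKO replicates 1 to 3, against 17.0, 14.7 and 16.2 CPM in WT replicates 1 to 3. The lowest SKO library stood 4.22 times above the highest WT library, the widest gap among the hosts. The means were 76.0 ± 6.16 CPM in SKO and 15.97 ± 1.16 CPM in WT (SD, n = 3 each), with a log2 fold change of 2.25 (SE 0.16), the 133rd highest of the 13474 genes tested; Gas5 stood at place 165.

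Snhg1, which carries a row of C/D snoRNAs and whose spliced RNA is also known from studies of cancer cells, followed. It had 109, 117 and 126 CPM in SKO replicates 1 to 3, against 33.8, 30.8 and 35.2 CPM in WT replicates 1 to 3. Its raw counts alone separated the genotypes, with 1330, 1261 and 1309 in the smaller SKO libraries, against 524, 531 and 537 in the larger WT libraries. The log2 fold change was 1.82 (SE 0.13), with means of 118 ± 8.26 CPM in SKO and 33.2 ± 2.25 CPM in WT (SD, n = 3 each).

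**Figure D1:**
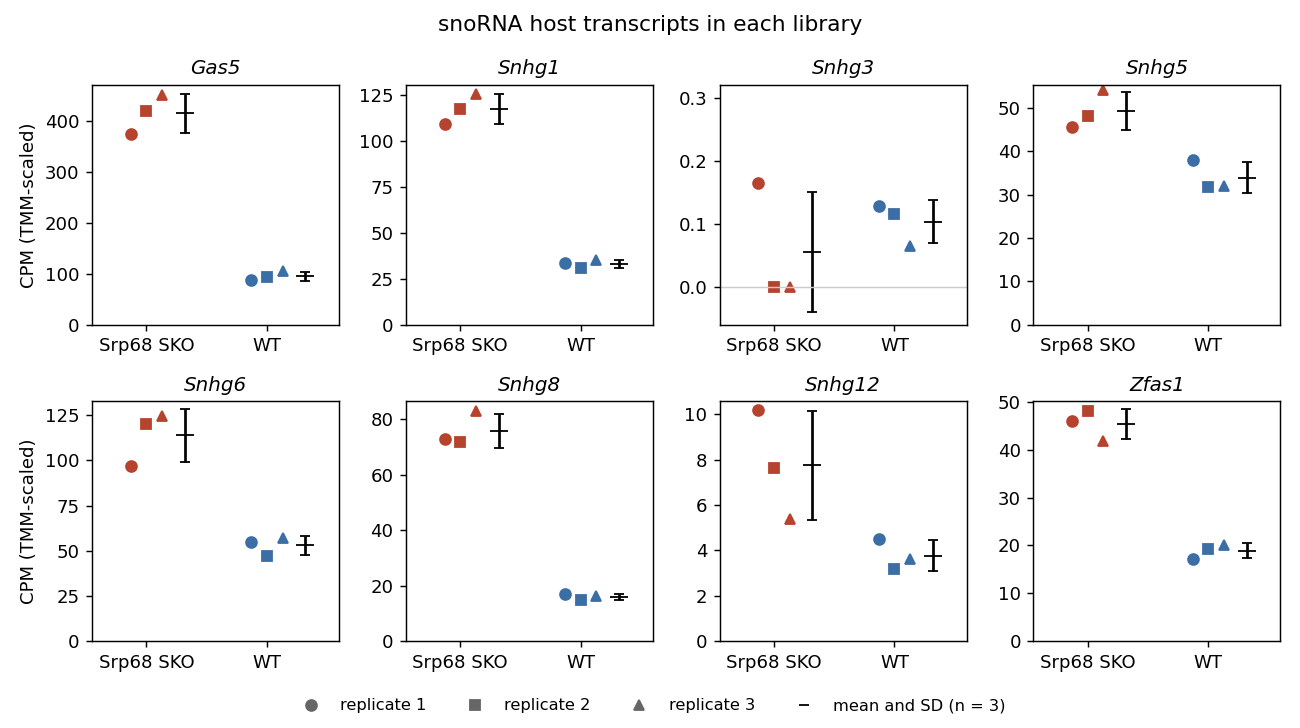
TMM-scaled CPM of each host gene (vertical axes, from 0 except for Snhg3, whose axis is extended below 0 to show its SD) in the 3 Srp68 SKO and 3 WT libraries, with points by replicate and a bar for the mean and SD. In 7 of the 8 panels every SKO point lies above every WT point, whereas Snhg3 stays near 0 in both genotypes.

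Zfas1, Snhg6 and Snhg12 had ratios of means of 2.40, 2.14 and 2.06. Zfas1, an antisense transcript at the Znfx1 gene and host of Snord12, had 45.9, 48.1 and 41.9 CPM in SKO replicates 1 to 3, against 17.1, 19.3 and 20.2 CPM in WT replicates 1 to 3 (log2 fold change 1.26, SE 0.18). Snhg6 had 96.9, 120 and 124 CPM in SKO replicates 1 to 3, against 55.0, 47.0 and 57.2 CPM in WT replicates 1 to 3 (log2 fold change 1.10, SE 0.14). In both genes the groups were well apart, the lowest SKO library lying 2.08 times above the highest WT library for Zfas1 and 1.70 times for Snhg6. Snhg12 was scarce, with 10.2, 7.63 and 5.39 CPM in SKO replicates 1 to 3 from 124, 82 and 56 counts, against 4.51, 3.19 and 3.60 CPM in WT replicates 1 to 3 from 70, 55 and 55 counts. Its groups barely separated, SKO replicate 3 being 1.20 times WT replicate 1, and its log2 fold change of 1.04 had the widest error of the 7 (SE 0.38). SKO replicate 1 was the highest library for Snhg12 but the lowest SKO library for Gas5, Snhg1, Snhg5 and Snhg6, so the hosts did not share 1 order among the knockout libraries.

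Snhg5, the host of Snord50a and Snord50b, differed least among the 7. It had 45.6, 48.1 and 54.2 CPM in SKO replicates 1 to 3, against 38.1, 31.7 and 32.1 CPM in WT replicates 1 to 3, and the nearest libraries of the 2 genotypes were 1.20 times apart. The log2 fold change was 0.54 (SE 0.16). Its unscaled counts overlapped between genotypes, at 554, 517 and 563 in SKO and 591, 547 and 490 in WT, so the separation appeared after scaling for library size and composition. Scaled by library totals alone the value was 0.27, and it was 0.33 once trends of each library with GC content and exon length had been taken out.

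Snhg3 could not be compared. It held 2, 0 and 0 counts in SKO replicates 1 to 3 and 2, 2 and 1 counts in WT replicates 1 to 3, all at or under the floor of 3 counts. In GENCODE 86.3% of the exon length of Snhg3 is shared with other annotated genes. Gm17300 on the opposite strand covers 71.5% of it and Rcc1 on the same strand 13.7%, so reads from this locus may have been set aside or given to another gene by the counting, which was not tested. Gm17300 was itself at no more than 0.372 CPM in any library. Rcc1, which encodes a nucleotide exchange factor of the GTPase Ran and starts 81 bases from Snhg3, had 4.53, 2.33 and 1.35 CPM in SKO replicates 1 to 3, against 7.99, 12.0 and 5.24 CPM in WT replicates 1 to 3. It was called lower (log2 fold change -1.61, SE 0.48; edgeR quasi-likelihood test with Benjamini-Hochberg adjustment over all genes, adjusted p = 0.0208), a call that was lost without SKO replicate 2 (adjusted p = 0.0793) or 3 (0.0777), without WT replicate 1 (0.0513) or 2 (0.113), and with the GC content and length correction (0.0762).

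By the fit across all genes, 6 of the 7 tested hosts stood past an adjusted p of 0.05, all higher, and Snhg12 did not, where 14.1% of all 13474 genes were called higher and 14.4% lower. The hosts were chosen with these values known, so these calls and those by other tools and settings below are no test of the hosts. They describe the choice of genes and nothing is read from them. DESeq2 called 7 higher, Snhg12 included, limma-voom 6 and the GC content and length correction 5. Snhg12 was also past the threshold with DESeq2 size factors, with upper-quartile scaling and without SKO replicate 3. Snhg5 was not past it with library totals, with the GC content and length correction, or without SKO replicate 2, SKO replicate 3, WT replicate 2 or WT replicate 3. The 0 hosts called lower were also 0 at an unadjusted p under 0.05 in edgeR and 0 in DESeq2 and limma-voom. All 7 had at least 55 counts in every library of both genotypes, so none passed the low-count filter through the SKO libraries alone. Together the 8 genes took 0.075 ± 0.0027% of all counts in SKO libraries and 0.0278 ± 0.000873% in WT libraries (SD, n = 3 each). Gas5 made up 50.3 ± 0.648% of those counts in SKO and 37.5 ± 2.6% in WT (SD, n = 3 each).

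Per kilobase of exon, Gas5, Snhg6 and Snhg8 were the most abundant hosts in SKO cells, and Snhg6 led in WT cells. In SKO libraries Gas5 stood at 110 ± 10.1, Snhg6 at 99.2 ± 12.8 and Snhg8 at 89.1 ± 7.22 CPM per kilobase (SD, n = 3 each), and the ranges of neighbours in this order overlapped. Snhg1 at 39.6 ± 2.78, Snhg5 at 28.5 ± 2.55, Zfas1 at 15.5 ± 1.08, Snhg12 at 3.22 ± 1.0 and Snhg3 at 0.0556 ± 0.0964 CPM per kilobase followed, each apart from the next. In WT libraries the order was Snhg6 at 46.3 ± 4.65, Gas5 at 25.3 ± 2.35, Snhg5 at 19.6 ± 2.07, Snhg8 at 18.7 ± 1.36, Snhg1 at 11.2 ± 0.759, Zfas1 at 6.45 ± 0.535, Snhg12 at 1.57 ± 0.282 and Snhg3 at 0.105 ± 0.034 CPM per kilobase. There Snhg5 and Snhg8 overlapped and the other neighbours did not. Among tested genes with a known exon length, 94.5% lay below Gas5 on this scale in SKO and 83.9% in WT, while 51.5% lay below Snhg12 in SKO and 35.0% in WT. The scale depends on which length is taken, because 20 of the 25 Gas5 transcripts and 14 of the 18 Snhg1 transcripts in GENCODE are retained-intron forms that lengthen the union of exons (3760 bases for Gas5) over the mean transcript (741 bases). With the mean transcript length Gas5 came first in both genotypes, at 560 ± 51.0 CPM per kilobase in SKO and 128 ± 11.9 in WT (SD, n = 3 each).

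Most of the other non-coding snoRNA hosts that could be tested did not pass. GENCODE gives 60 such genes, of which 47 were in the table and 21 were tested; 4 rose, 1 fell and 16 did not pass. The share called higher was 19.0%, near the 14.1% of all genes tested, and the median log2 fold change was 0.61 against -0.03 over all genes tested. Several of the 16 were scarce, such as Rian at 1.53 CPM in SKO and 0.579 CPM in WT. Gm28496 was at 0.605 CPM in SKO and 1.20 CPM in WT. The part of low counts in their failure to pass was not tested. 2410006H16Rik, a lncRNA gene that holds 3 snoRNAs, had 84.0, 91.1 and 96.6 CPM in SKO replicates 1 to 3, against 23.6, 25.2 and 19.5 CPM in WT replicates 1 to 3. Every SKO library was more than 3 times the highest WT library, and the gene rose with a log2 fold change of 1.99 (SE 0.16; edgeR adjusted p = 1.75e-06). Snhg9 rose by 1.67 on the log2 scale (SE 0.33; edgeR adjusted p = 0.00161), with means of 24.7 ± 9.61 CPM in SKO and 7.75 ± 2.20 CPM in WT (SD, n = 3 each). 1110038B12Rik rose by 1.21 (SE 0.24; edgeR adjusted p = 0.00166), and Snhg15 by 0.77 (SE 0.20; edgeR adjusted p = 0.0104), a call that Snhg15 lost with library totals (0.51; adjusted p = 0.0768). The gene that fell, Cct6a (log2 fold change -0.31, SE 0.10; edgeR adjusted p = 0.0291), has a non-coding biotype in GENCODE vM21 but is protein-coding in RefSeq, where it encodes a chaperonin subunit. Snhg17, at 18.7 CPM in SKO and 22.04 CPM in WT, did not pass (log2 fold change -0.24, edgeR adjusted p = 0.452). Epb41l4aos, at 19.1 CPM in SKO and 12.85 CPM in WT, had every SKO library above every WT library. It did not pass either (log2 fold change 0.57, edgeR adjusted p = 0.0733). Rian, Gm28496, Snhg17 and Epb41l4aos are named after their values were seen. Non-coding genes without a nested snoRNA, a comparison added after the data were seen, had 7.42% of 970 called higher and 5.46% lower, and their median log2 fold change was 0.12. Corrected for GC content and length, the medians were 0.29 for the other non-coding hosts and -0.06 for non-coding genes without a snoRNA.

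**Figure D2:**
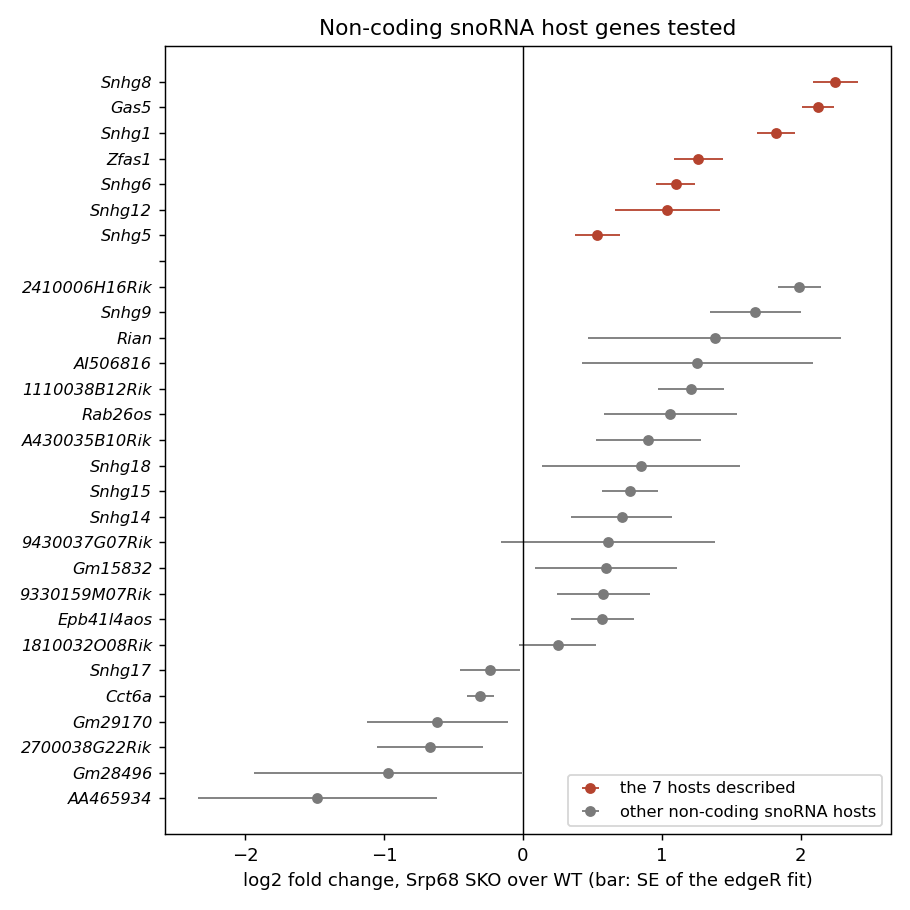
Log2 fold change of Srp68 SKO over WT (horizontal axis) with the SE of the fit (bars) for the 7 tested hosts described here (red) and the 21 other tested non-coding snoRNA hosts (grey). The 7 lie between 0.54 and 2.25, and 15 of the 21 others lie above 0.

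Protein-coding hosts that are ribosomal protein genes were mostly called higher, and the others were called in both directions. Of 31 ribosomal protein genes with a nested snoRNA, 26 rose, 0 fell and 5 did not pass, with a median log2 fold change of 0.78. Rpl10, of the large subunit, rose to 739 ± 34.0 CPM in SKO, against 283 ± 29.2 CPM in WT (SD, n = 3 each; edgeR adjusted p = 1.14e-06), and Rpl32 rose by 1.18 on the log2 scale (edgeR adjusted p = 1.83e-06). No member of the list was lower at an unadjusted p under 0.05 in edgeR, DESeq2 or limma-voom either. Ribosomal protein genes without a nested snoRNA, set beside them after the data were seen, had 47 of 55 called higher and 1 lower, with a median of 0.82. The shares called higher were thus 83.9% with and 85.5% without a snoRNA, and the difference was not tested. Of the other protein-coding hosts, 31 of 177 (17.5%) were called higher, 33 (18.6%) lower and 113 did not pass, with a median of 0.01, so that both shares were near those of all genes. Sf3b4, a subunit of the U2 snRNP factor SF3b, fell to 5.35 ± 1.52 CPM in SKO, against 44.7 ± 2.89 CPM in WT (SD, n = 3 each; edgeR adjusted p = 1.79e-06). Cbwd1, Iars (isoleucyl-tRNA synthetase) and the kinase gene Rock2 rose by 0.89, 1.20 and 0.98 (edgeR adjusted p = 1.58e-05, 4.67e-05 and 4.89e-05). Rock2 lost its call with the GC content and length correction (0.29; adjusted p = 0.0808).

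**Figure D3:**
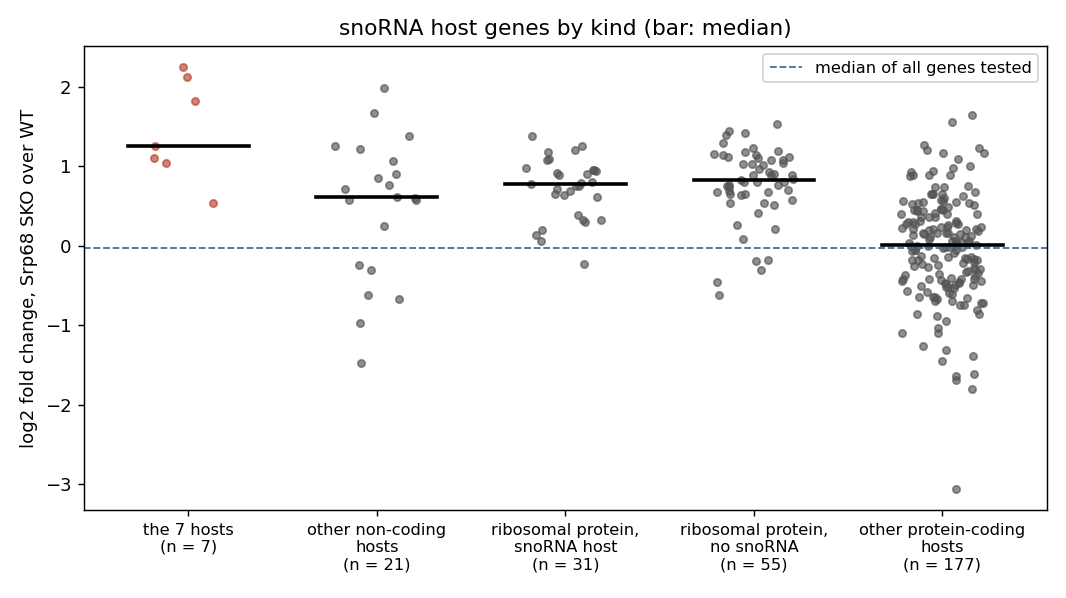
Log2 fold change of Srp68 SKO over WT (vertical axis) for each tested gene of 5 kinds, with the median of each kind as a bar and the median of all genes tested as a dashed line. The 7 hosts (median 1.26) and both sets of ribosomal protein genes (0.78 and 0.82) sit above the dashed line at -0.03, and the other protein-coding hosts spread around it.

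Genes for proteins that package and assemble snoRNAs were called in both directions. Of 19 tested snoRNP proteins and assembly factors, 4 rose, 4 fell and 11 did not pass, with a median log2 fold change of 0.07. The share called was 21.1% in each direction, beside 14.1% higher and 14.4% lower over all genes tested, and the difference was not tested. DESeq2 called 4 higher and 5 lower, and the GC content and length correction 5 higher and 2 lower. Snu13, which binds box C/D RNAs, rose to 1341 ± 120 CPM in SKO, against 674 ± 51.8 CPM in WT (SD, n = 3 each; edgeR adjusted p = 1.04e-05). Nop10 and Nhp2, small subunits of H/ACA particles, rose by 0.68 and 0.59 on the log2 scale (edgeR adjusted p = 0.000374 and 0.000484). Ruvbl2, an ATPase of the R2TP assembly complex, fell to 49.9 ± 7.58 CPM in SKO, against 103 ± 7.69 CPM in WT (SD, n = 3 each; edgeR adjusted p = 0.000117); with the GC content and length correction it stood at -0.33 and did not pass (adjusted p = 0.0957). Also past the threshold, and named after their values were seen, were Naf1 (log2 fold change 0.72), Pih1d1 (-0.89), Ruvbl1 (-0.50) and the C/D core protein gene Nop56 (-0.43). The methyltransferase gene Fbl was at 32.7 CPM in SKO and 37.9 CPM in WT (edgeR adjusted p = 0.409), and the pseudouridine synthase gene Dkc1 at 51.7 and 42.1 CPM in SKO and WT (adjusted p = 0.191); both are named after their values were seen.

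Factors of nonsense-mediated decay, the pathway that degrades several spliced host RNAs, were also called in both directions. Of 20 tested, 7 rose, 3 fell and 10 did not pass, with a median log2 fold change of 0.04. These are shares of 35.0% higher and 15% lower, beside 14.1% and 14.4% over all genes tested; the share called lower was near that of all genes, and neither difference was tested. Magoh, Magohb and Rbm8a, which encode Y14 and its MAGO partners in the exon junction complex, rose by 0.82, 1.05 and 0.70 (edgeR adjusted p = 9.98e-05, 4.90e-05 and 5.35e-05). Rbm8a had 1309, 1317 and 1340 CPM in SKO replicates 1 to 3, against 767, 833 and 845 CPM in WT replicates 1 to 3, and its groups were far apart for their spread. Upf1, the helicase at the centre of the pathway, had 13.8, 6.24 and 9.33 CPM in SKO replicates 1 to 3, against 29.0, 29.8 and 20.4 CPM in WT replicates 1 to 3. It fell by 1.43 on the log2 scale (SE 0.29; edgeR adjusted p = 0.00216). Eif4a3 (-0.57) and Smg9 (-1.20), picked out after seeing their values, fell as well. With the GC content and length correction 4 factors were called higher and 1 lower, and 4 were called higher without SKO replicate 2, without SKO replicate 3 or without WT replicate 2.

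Among the genes beside the hosts, 1 was called higher and 1, Rcc1 beside Snhg3, lower. Slc3a2, the shared heavy chain of several amino acid transporters, starts 106 bases from Snhg1 on the opposite strand. It had 309, 297 and 269 CPM in SKO replicates 1 to 3, against 128, 106 and 91.7 CPM in WT replicates 1 to 3, and rose with a log2 fold change of 1.42 (SE 0.13; edgeR adjusted p = 5.32e-06). Its largest SKO value fell in replicate 1, where Snhg1 had its smallest. The head-to-head neighbours of Gas5 and Zfas1 did not pass. Zbtb37, whose start lies 427 bases from the first annotated base of Gas5, was at 13.5, 26.7 and 11.9 CPM in SKO replicates 1 to 3, against 11.4, 8.86 and 15.1 CPM in WT replicates 1 to 3 (log2 fold change 0.56, SE 0.32; edgeR adjusted p = 0.226). Znfx1, which starts 81 bases from Zfas1, was at 8.31, 7.63 and 6.83 CPM in SKO replicates 1 to 3, against 15.1, 6.26 and 5.76 CPM in WT replicates 1 to 3 (log2 fold change -0.25, SE 0.38; edgeR adjusted p = 0.671). In both neighbours the genotypes overlapped, unlike in the hosts beside them, although the difference between host and neighbour was not tested. Among other nearest protein-coding genes, Phactr4, Syncrip, Zfp949, Mcmdc2, Tcf24 and Trnau1ap did not pass either (edgeR adjusted p = 0.324 to 0.931), and Wdr74, Prss12, Ndst3 and Rab42 had too few counts to be tested. Mcmdc2 shares exon bases with Snhg6, 11.1% of the exon length of Snhg6, and Znfx1 shares 2.8% of that of Zfas1, so reads in those bases could belong to either gene.

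The genes with the pattern closest to that of Gas5 included a further snoRNA host and a regulator of meiotic entry. Likeness was the root mean square difference over the 6 libraries in log2(CPM + 0.5), each gene centred on its WT mean, among 3441 tested genes of at least 50 CPM that are not among the 8 hosts. Stra8, a factor that retinoic acid induces and that germ cells need to enter meiosis, was closest at 0.166, with 502, 430 and 526 CPM in SKO replicates 1 to 3, against 86.4, 98.6 and 115 CPM in WT replicates 1 to 3. 2410006H16Rik followed at 0.203, then Figla (0.236), a helix-loop-helix factor known from oocytes, the X-linked gene Xlr (0.275), the elongation cofactor gene Eaf2 (0.340) and the histone H4 gene Hist1h4d (0.345). On the same measure Snhg8 stood at 0.138, closer than any of the 3441 genes, and Snhg1 at 0.233. Zfas1, Snhg6, Snhg12 and Snhg5 were farther away, at 0.632, 0.735, 0.926 and 1.13. The hosts were not held to the minimum of 50 CPM, which is a mean over the 6 libraries. Snhg8 averaged 76.0 CPM in SKO and 15.97 CPM in WT, and other genes under that minimum were not ranked. All of these genes share the same 6 libraries and depth, and genes were ranked on the same genotype difference that Gas5 shows.

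**Figure D4:**
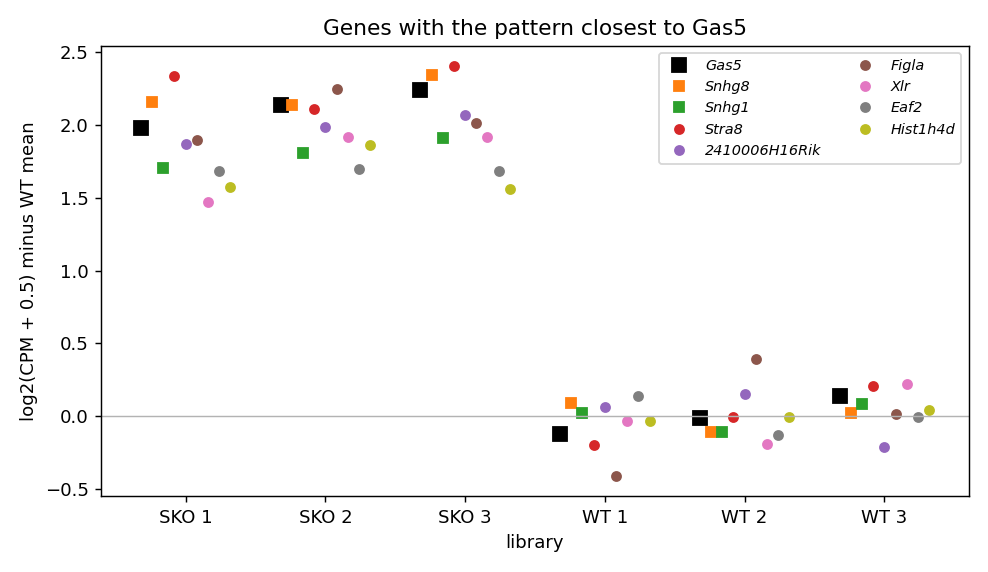
Log2(CPM + 0.5) minus the WT mean of each gene (vertical axis) in each library (horizontal axis) for Gas5, Snhg8 and Snhg1 (squares) and the 6 genes closest to Gas5 (circles). In every SKO library all 9 genes lie above their values in every WT library, and Stra8 and Snhg8 lie closest to Gas5.

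The size of the differences moved with the scaling but their direction did not, in the settings run. With scaling by library totals, which shifts the median of all genes to -0.29, the 7 hosts stood between 0.27 (Snhg5) and 1.99 (Snhg8), each above that median. The hosts are shorter and lower in GC than most tested genes, with a GC content of their transcripts of 40.9% (Snhg6) to 48.7% (Zfas1) against a median of 49.0% over all tested genes, and a median exon length of 2402 against 3930 bases. After the correction for both properties Snhg6 was at 0.64 in place of 1.10, Snhg1 at 1.47 in place of 1.82 and Gas5 at 1.84 in place of 2.12, whereas Zfas1 was at 1.32 in place of 1.26.

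**Figure D5:**
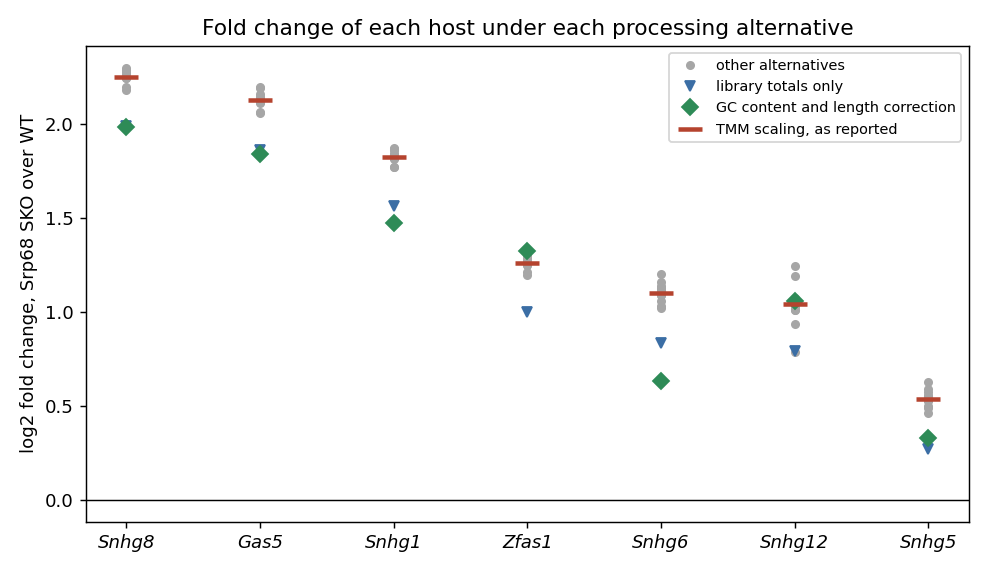
Log2 fold change of Srp68 SKO over WT (vertical axis) of each tested host with TMM scaling as reported (bars), with library totals only (triangles), after the GC content and length correction (diamonds) and under the other alternatives (grey). No point lies below 0, and the lowest is Snhg5 with library totals, at 0.27.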

How the data were processed

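Poly(A) RNA of 6 libraries, 3 Srp68 SKO and 3 WT, was measured. The authors deposited raw counts per gene, not normalized. The submitters' processing notes name FastQC, Trim Galore 0.6.4, HISAT2 2.0.5 and 2 names of the mouse build, GRCm38 and mm10; how reads were counted (tool, annotation, strand) was not given in the sources used here. Symbols, positions and lengths came from GENCODE vM21, which holds 49325 of the 49584 identifiers. The reads carry no molecular identifiers, and the floor of 3 counts covers counting error only. The SDs and standard errors also hold the spread between libraries.

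The fit of the counts used edgeR 4.0.16 under R 4.3.3 (filterByExpr, 13474 genes kept; TMM; glmQLFit and glmQLFTest, two-sided, genotype only, Benjamini-Hochberg over all tested genes, threshold 0.05), checked on simulated counts. Standard errors come from that fit. The biological coefficient of variation was 0.304, and no library repeated another, since replicates gave chi-square values of 12.0 to 22.2 per degree of freedom. The labels do not say that replicates are separate animals, so p-values measure the spread between these libraries, which may be technical. Same-numbered SKO and WT libraries did not deviate together (correlations -0.0505 to 0.0295), so numbers were not taken as pairs.

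The members and lists were chosen with earlier results of these data known. Named genes beside the hosts were Srp68, up to 4 called genes of each list by smallest p, the nearest protein-coding genes, and the 6 genes closest to Gas5. Some genes that this rule names are not reported here. Host lists were genes that hold a GENCODE snoRNA gene on the same strand. Alternatives were other scalings, filters, DESeq2 1.42.0, robust edgeR, limma-voom (limma 3.58.1), a replicate block, each library left out, a threshold of 0.01, and a loess correction (span 0.3) for GC content and exon length.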

Additional observations from a re-analysis of the deposited data

How the results depend on the processing

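With library totals only, 1010 genes were higher and 3168 lower in place of 1901 and 1937, so that the split between directions moved. Under that setting other protein-coding hosts gave 12 higher and 55 lower, decay factors 3 higher and 5 lower, and ribosomal protein hosts 1 lower, while Gas5 stood at 1.86, Snhg1 at 1.56, Snhg5 at 0.27, Snhg6 at 0.835, Snhg8 at 1.99 and Zfas1 at 1.00. With the GC content and length correction, other protein-coding hosts gave 15 higher, decay factors 4 higher and 1 lower, and snoRNP proteins 5 higher and 2 lower. Gas5, Snhg1, Snhg5, Snhg6 and Snhg8 then stood at 1.84, 1.47, 0.33, 0.635 and 1.98. A threshold of 0.01 left 1230 genes higher and 1142 lower, 4 decay factors higher, 21 other protein-coding hosts lower and 0 other non-coding hosts lower; upper-quartile scaling also gave 0 of these (1 at an unadjusted p under 0.05 in edgeR; 1 called in DESeq2 and 1 in limma-voom). Without single libraries, genes called higher ran from 1361 to 1916 and lower from 1373 to 1851, decay factors from 4 to 6 higher, other non-coding hosts from 0 to 1 lower and ribosomal protein hosts from 0 to 1 lower; the 4 came without SKO replicate 2, SKO replicate 3 or WT replicate 2. Gas5 ran from 2.06 to 2.20, Snhg12 from 0.79 to 1.24 and Snhg5 from 0.46 to 0.63. Among neighbours that passed in neither direction, signs turned for Zbtb37 (-0.028), Syncrip (-0.58, then past the threshold), Mcmdc2 (-0.19), Trnau1ap (0.34) and Znfx1 (0.027) with the GC content and length correction, for Phactr4 (-0.23), Syncrip (-0.14) and Mcmdc2 (-0.057) with library totals, for Phactr4 without SKO replicate 1 (-0.05) or WT replicate 1 (-0.059, in a range up to 0.152) and for Znfx1 without WT replicate 1 (0.34, in a range down to -0.49). Apart from what the construction of each setting shows, the cause was not tested. With the replicate block 1976 genes were higher and 1991 lower, and Gas5 stood at 2.12. Snhg12 was not tested under the filter of 5 CPM, and at 55 to 124 counts a library its depth limits it most, beside Snhg3.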

Other observations

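Values of other genes that begin with a pyrimidine run were set out by a narrower window than the one marked in the host sequences. Among tested genes that are neither ribosomal protein genes nor snoRNA hosts, 1093 had a C followed by 4 pyrimidines opening within 2 bases of a RefSeq start. Of these 13.2% were called higher and 16.3% lower, and the median log2 fold change was -0.12, beside 14.1% and 15.9% and a median of -0.08 for the 8300 genes without such a run. The split was chosen after the data and the sequences of the hosts had been seen, and no test was made.

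Ribosomal protein genes also held members that went the other way. Rpl10l, the autosomal and testis-expressed copy of Rpl10, fell by 0.46 on the log2 scale (edgeR adjusted p = 0.00685), while Rpl10 rose by 1.39. Rps27 had the highest value of that class without a snoRNA, at 1.54 (edgeR adjusted p = 4.49e-07). Reads shared between near-identical ribosomal protein copies could have been split or dropped in the counting, so both values of the Rpl10 pair are uncertain. These genes are named after their values were seen.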
